A study of Mus musculus with 19 samples.

Results

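The genes described here were *Tox* and *Tox2*, 2 of the 28692 genes counted in thymocytes by CITE-seq, an assay that reads the RNA of a cell together with the barcodes of antibodies bound to its surface. They were found by their gene names in the count matrices. Thymi came from 17 female mice aged 4 to 8 weeks, run in 19 lanes. Wild-type (WT) B6 mice numbered 5. CD4-fated mice, whose T cells are mainly selected on MHC class II, were AND TCR transgenic Rag1-/-, OT-II TCR transgenic and MHCI-/- (*B2m*-/-), with 2 mice of each. CD8-fated mice, mainly selected on MHC class I, were F5 TCR transgenic Rag1-/-, OT-I TCR transgenic and MHCII-/- (*H2-Ab1*-/-), also with 2 mice of each. AND and F5 thymocytes carry 1 receptor each because they cannot rearrange their own, whereas OT-I and OT-II mice keep *Rag1*, and the MHC-deficient mice have diverse receptors. Cells of the MHC-deficient mice and of WT mice 1 to 3 were sorted as CD5+TCRβ+, and the other samples were unsorted. The mice were processed in 3 experiments. The first and second held WT mice 1 to 3 with the AND, F5 and MHC-deficient mice, and the third held WT mice 4 and 5 with the OT mice, so that sorting and experiment cannot be told apart among WT mice.

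TOX and TOX2 are nuclear proteins with a single HMG box, a DNA-binding domain that bends DNA. TOX is induced in double positive (DP) thymocytes by T cell receptor (TCR) signals through calcineurin, and mice without it make few CD4+ T cells, regulatory T cells and natural killer T (NKT) cells. TOX is also known from exhausted T cells and from the development of innate lymphoid cells, and TOX2 from natural killer cells and T follicular helper cells. In the GRCm38.p6 assembly, *Tox* (ENSMUSG00000041272) lies on chromosome 4 from 6686353 to 6991557 and spans 305205 bases, and *Tox2* (ENSMUSG00000074607) lies on chromosome 2 from 163203058 to 163324172 and spans 121115 bases.

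After filtering, 69277 cells of 85389 barcodes were kept. Levels are counts per 1000000 RNA unique molecular identifiers (UMIs), in short CPM, of the summed cells of a mouse. In MHCI-/- mice 1 and 2, *B2m* stood at 47.3 and 48.4 CPM, against 403 CPM or more in every other mouse. In MHCII-/- mice *H2-Ab1* stood at 8.90 and 8.79 CPM, inside the range of the other mice (2.74 to 266 CPM), and *Rag1* was at 5.45 to 54.2 CPM in AND and F5 mice, where OT-I mice had 26.8 and 53.1 CPM. Whether the counted 3′ ends of these 2 genes lie outside the altered part was not tested. The median depth of a lane was between 1495.5 and 7174 RNA UMIs per cell. A barcode sequence was found in more than 1 lane 645 times. Transcripts were read from their 3′ ends, and levels are compared within a gene, not between genes. Stages were gated on surface antibodies alone, so that the RNA of *Tox* and *Tox2* had no part in the gate. CD69- IL-7Rα- DP cells are called DP1, CD69+ IL-7Rα- DP cells DP2 and CD69+ IL-7Rα+ TCRβ+ DP cells DP3. The CD4+CD8lo cells that follow DP2 precede both the CD4 lineage and, through DP3, the CD8 lineage. Single positive (SP) cells were split by CD69 into semimature (SM, CD69+) and mature (CD69-) cells. In sums of this kind, fewer cells with the gene and less RNA per cell cannot be told apart. A mouse entered a comparison with at least 20 cells in the gate. The p-values are adjusted p-values from edgeR's quasi-likelihood test over all genes tested unless another test is named.

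*Tox* was at its highest in DP2 and CD4+CD8lo cells and lower in every later gate. In WT mice *Tox* stood at 311 ± 149 CPM in DP1 (SD, n = 5), 1054 ± 231 CPM in DP2 (n = 5) and 984 ± 120 CPM in CD4+CD8lo cells (n = 5). It stood at 391 ± 82.0 CPM in CD4 SM cells and 192.5 ± 32.3 CPM in mature CD4 cells, and at 258 ± 52.1 CPM in CD8 SM cells and 170 ± 42.5 CPM in mature CD8 cells (n = 5 each). In DP1 of WT mice 1 to 5 the *Tox* level was 440, 486, 277, 135 and 216 CPM, and in DP2 it was 1106, 882, 1047, 822 and 1411 CPM. The DP1 and DP2 levels did not overlap, and the lowest DP1 levels were those of the 2 unsorted mice. In CD4+CD8lo cells of the same mice it was 1013, 973, 958, 821 and 1156 CPM, which overlapped with DP2. The DP3 gate held enough cells in only 2 WT mice, with *Tox* at 338 and 274 CPM. In the order of WT means (DP2, CD4+CD8lo, CD4 SM, DP1, DP3, CD8 SM, mature CD4, mature CD8), each gate overlapped with the next except CD4+CD8lo with CD4 SM cells.

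In WT mice *Tox2*, counted far less often than *Tox*, was also highest on average in DP2 and CD4+CD8lo cells and close to 0 in SP cells. From mouse 1 to mouse 5 *Tox2* was at 6.67, 6.57, 4.56, 1.64 and 1.97 CPM in DP1. In DP2 it was at 28.8, 15.02, 17.02, 13.2 and 0 CPM, the last from 0 UMIs in 238 cells of WT mouse 5. In CD4+CD8lo cells it was at 21.9, 21.0, 10.1, 14.8 and 11.9 CPM, above every DP1 value. In CD4 SM cells it was between 0 and 3.01 CPM, from at most 10 UMIs per mouse, and in mature CD8 cells between 0 and 2.15 CPM, from at most 1 UMI. DP3 held no *Tox2* UMI in either WT mouse with enough cells, so that no fold is given for that gate.

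**Figure D1:**
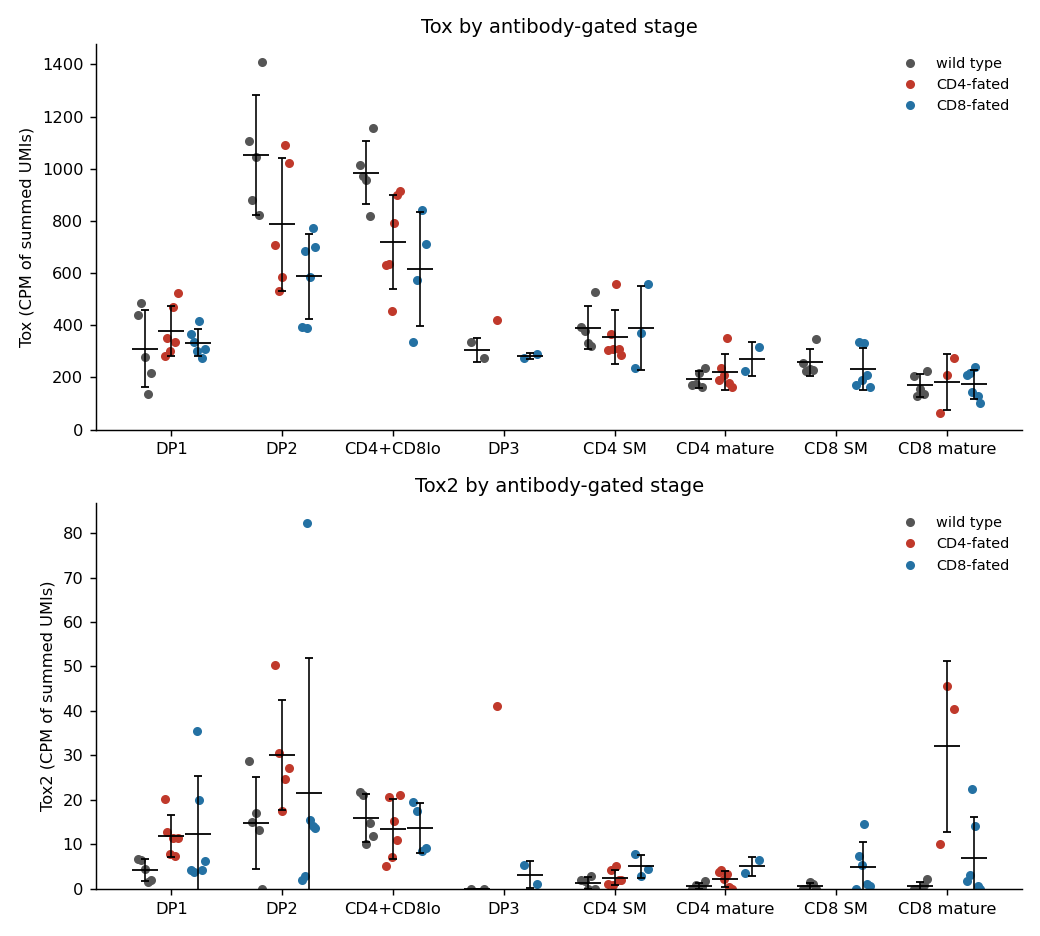
*Tox* (top) and *Tox2* (bottom) by antibody-gated stage in WT, CD4-fated and CD8-fated mice, in CPM of summed UMIs. Each point is a mouse with at least 20 cells in the gate and bars are mean ± SD; *Tox* of all 3 groups is higher in DP2 than in DP1 and lower again in SP cells.

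Both genes were called higher in DP2 than in DP1, the step marked by CD69, an early sign of TCR signalling, in each group of mice. *Tox* rose on the log2 scale by 1.12 ± 0.153 (SE) in CD4-fated mice (adjusted p = 4.9e-06), by 0.82 ± 0.169 in CD8-fated mice (adjusted p = 0.00034) and by 1.75 ± 0.159 in WT mice (adjusted p = 4.9e-12). *Tox2* rose by 1.31 ± 0.364 (adjusted p = 0.0102), 1.07 ± 0.371 (adjusted p = 0.0271) and 1.95 ± 0.406 (adjusted p = 0.00015) in the same order. Of all genes tested, 17.7% were called at this step in CD4-fated, 29.7% in CD8-fated and 35.9% in WT mice, so that a call here was common. By its levels in single mice, *Tox2* was higher in DP2 in 5 of 5 CD4-fated, 4 of 5 WT and 3 of 6 CD8-fated mice. It was lower in both F5 mice, in OT-I mouse 2 (19.96 to 15.4 CPM) and in WT mouse 5. The *Tox2* rise in CD4-fated mice was no longer called with the antibody thresholds moved by 20% either way (adjusted p = 0.305 and 0.115) or without MHCI-/- mouse 1 (adjusted p = 0.0873). In CD8-fated mice it was lost in DESeq2 (adjusted p = 0.178) and without either MHCII-/- mouse (adjusted p = 0.192 and 0.0904), and also with the antibody thresholds moved by 20% either way and with at least 50 cells per gate.

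From DP2 to CD4+CD8lo cells neither gene was called, with *Tox* changing by -0.13 in CD4-fated (adjusted p = 0.741), 0.09 in CD8-fated (adjusted p = 1.00) and -0.01 on the log2 scale in WT mice (adjusted p = 0.995). At this step 6.31%, 0.397% and 8.32% of genes were called. *Tox2* changed by -0.95 (adjusted p = 0.160), -0.98 (adjusted p = 0.467) and 0.24 (adjusted p = 0.815).

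From CD4+CD8lo to CD4 SM cells both genes fell. In CD4-fated mice *Tox* fell by 0.90 (adjusted p = 2.9e-05) and *Tox2* fell by 2.64 on the log2 scale (adjusted p = 1.3e-05), at a step where 14.8% of genes were called. In WT mice *Tox* fell by 1.17 (adjusted p = 7.6e-08) and *Tox2* fell by 3.23 (adjusted p = 4.4e-08), with 26.6% of genes called. From CD4 SM to mature CD4 cells *Tox* fell again, by 0.60 in CD4-fated (adjusted p = 0.0085) and by 0.87 in WT mice (adjusted p = 9.4e-05), with 6.03% and 17.3% of genes called. *Tox2*, already near 0, was not called there (adjusted p = 0.989 and 0.231).

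On the CD8 side *Tox* was lower in DP3 than in CD4+CD8lo cells. In WT mice the fall of 1.66 passed the test (adjusted p = 0.0011), where 2.39% of genes were called. In CD8-fated mice *Tox* was lower by a log2 difference of -1.004 with adjusted p = 0.130, where 0.161% were called. Each value rests on 2 mice with both gates. In MHCII-/- mice 1 and 2, the only CD8-fated mice with enough DP3 cells, *Tox* stood at 274 and 291 CPM in DP3 and at 843 and 711 CPM in CD4+CD8lo cells. The CD8-fated difference was called in DESeq2 (adjusted p = 0.0322) and without the filter on low counts (adjusted p = 0.00087). From DP3 to CD8 SM cells and on to mature CD8 cells neither gene was called in either group, with 0.387% and 1.21% of genes called in CD8-fated and 1.19% and 5.25% in WT mice.

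The question of lineage was put by comparing CD4-fated with CD8-fated mice inside each gate. Whether a gate held cells of the same stage in both fates was not tested, and in DP2 *Runx3*, *Il7r* and *Aqp11* differed, as given below. *Tox* was at 377, 787 and 720 CPM on average in DP1, DP2 and CD4+CD8lo cells of CD4-fated mice, and at 334, 588 and 616 CPM in CD8-fated mice. The CD4+CD8lo mean of CD8-fated mice is that of OT-I and MHCII-/- mice alone, since the F5 mice had 14 and 15 cells in the gate, and the DP2 mean of CD4-fated mice leaves out OT-II mouse 2, with 13 cells. In DP1 the CD4-fated mice ranged from 284 to 522 CPM and the CD8-fated from 273 to 418 CPM, and the groups overlapped. In DP2 the CD4-fated values were 706 and 533 CPM in AND, 584 CPM in OT-II mouse 1 and 1089 and 1021 CPM in MHCI-/- mice. The CD8-fated values there were 395 and 685 CPM in F5, 390 and 585 CPM in OT-I and 773 and 700 CPM in MHCII-/- mice. The 2 MHCI-/- mice were above every other mouse, and the rest overlapped.

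The differences of *Tox* between the fates, CD4-fated minus CD8-fated, were 0.18 ± 0.185 in DP1 (adjusted p = 1), 0.32 ± 0.177 in DP2 (adjusted p = 0.518) and 0.32 ± 0.229 in CD4+CD8lo cells on the log2 scale (adjusted p = 0.910). In these gates 0.03%, 1.91% and 0.565% of genes were called. The DP2 difference was called with the antibody thresholds raised by 20% (0.58, adjusted p = 0.0042). In SM cells, CD4 SM of CD4-fated against CD8 SM of CD8-fated mice, *Tox* was higher by 0.69 ± 0.213 (adjusted p = 0.0495), in a comparison that called 9.28% of genes. The CD4-fated values there were 306, 365.5, 308, 558, 308 and 285 CPM in AND, OT-II and MHCI-/- mice. The CD8-fated values were 170, 338, 189, 334, 209 and 162 CPM in F5, OT-I and MHCII-/- mice, so that F5 mouse 2 and OT-I mouse 2 lay inside the CD4-fated range. This call was lost in 9 of 12 fits that left out 1 mouse and with other scalings, so that it stood at the edge of the threshold. In mature cells the difference was 0.44 ± 0.181 (adjusted p = 0.130), with 14.7% of genes called. The lanes of OT-II mouse 2 and OT-I mouse 2 were shallower than those of mouse 1 of each genotype (median 2124 and 3150 against 4214 and 7174 RNA UMIs per cell). Whether depth bears on the *Tox* levels of these mice was not tested.

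*Tox2* did not pass the test between the fates in any gate. The difference was 0.40 in DP1 (adjusted p = 1), 0.92 in DP2 (adjusted p = 0.429), 0.33 in CD4+CD8lo (adjusted p = 0.999) and -1.03 on the log2 scale in mature cells (adjusted p = 0.300), and in SM cells *Tox2* was below the filter on low counts. Whether the DP1 to DP2 step differed between the fates was tested directly, and it was not called for *Tox* (0.27 ± 0.203, adjusted p = 0.838) or for *Tox2* (0.28 ± 0.415, adjusted p = 0.961), with 0.103% of genes called.

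In DP1 the order of *Tox2* between the fates was not the same in each pair of genotypes. *Tox2* was at 20.2 and 12.8 CPM in AND mice against 4.23 and 3.85 CPM in F5 mice. It was at 7.90 and 11.5 CPM in OT-II against 35.5 and 19.96 CPM in OT-I mice, the reverse order, and at 7.38 and 11.4 CPM in MHCI-/- against 4.17 and 6.23 CPM in MHCII-/- mice. In each of these 3 pairs the values of the 2 genotypes did not overlap.

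In a fit with all 17 mice the AND minus F5 contrast of *Tox2* in DP1 was 2.12 ± 0.375 on the log2 scale (adjusted p = 0.0514; 0.0946% of genes called), and the OT-II minus OT-I contrast was -1.74 ± 0.359 (adjusted p = 0.0515; 0.473% called). Neither passed in edgeR, and both did in DESeq2 (adjusted p = 0.00056 and 0.0034). With mice of the same replicate number as a block, a fit added after the values were seen, both passed (2.10 ± 0.388, adjusted p = 0.0180, and -1.87 ± 0.330, adjusted p = 0.0078). The MHCI-/- minus MHCII-/- contrast was 0.85 ± 0.356 (adjusted p = 1; 0.132% called). The difference between the first 2 contrasts, chosen after the values were seen, was 3.86 ± 0.519 (adjusted p = 0.0067; 0.861% called). It was lost without AND mouse 1 (3.45, adjusted p = 0.0698), OT-I mouse 1 (3.29, adjusted p = 0.0515) or OT-II mouse 1 (3.48, adjusted p = 0.0534). The AND and F5 mice lack *Rag1*, and the OT mice do not. *Tox* in DP1 differed by -0.09 and 0.01 in the same contrasts (adjusted p = 0.981 and 0.998).

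In DP2 *Tox2* was at 50.4 and 30.6 CPM in AND mice and at 1.94 and 2.84 CPM in F5 mice, from 1 UMI in each F5 mouse. The gate held 56 and 30 cells in AND mice 1 and 2. The lane of AND mouse 2 had the fewest antibody UMIs, 4484116 against 9906949 in the next lowest lane, and 1901 of its 4518 barcodes passed the filters. The AND minus F5 contrast was 4.09 ± 0.952 (adjusted p = 0.04995; 0.65% called). In mature cells *Tox2* was lower in OT-II CD4 cells, at 2.22 and 3.29 CPM, than in OT-I CD8 cells, at 22.4 and 14.1 CPM, and the contrast of -2.86 ± 0.676 passed the test (adjusted p = 0.0225; 5.94% called). It sets CD4 cells of one genotype against CD8 cells of the other, so genotype and cell type cannot be told apart in it. The few mature CD8 cells of OT-II mice (25 and 22) held *Tox2* at 45.55 and 40.6 CPM, from 10 and 4 UMIs, above the OT-I CD8 cells. The mature CD4 cells of OT-I mice (93 and 56) held it at 3.59 and 6.61 CPM, from 2 and 1 UMIs, above the OT-II CD4 cells. Neither of these like-for-like differences was tested. The contrast did not pass without OT-I mouse 1 (adjusted p = 0.105) or without either OT-II mouse (adjusted p = 0.291 and 0.0533). A γδ T-like cluster, described below, held 6.89% and 12.4% of the mature CD8 cells of OT-I mice against 0.235% and 0.8% of the mature CD4 cells of OT-II mice. Its share was 16% and 22.7% in the mature CD8 cells of OT-II mice (4 of 25 and 5 of 22 cells). In the mature CD4 cells of OT-I mice it was 0% and 3.57%. With the γδ T-like cells left out, the contrast was -3.08 (adjusted p = 0.0134). Summed over 5 γδ markers (*Trdc*, *Sox13*, *Tcrg-C1*, *Tcrg-V6* and *Maf*), the level was 499.6 and 515 CPM in mature CD8 cells of OT-I mice and 73.6 and 136 CPM in mature CD4 cells of OT-II mice, with 4 of 5 detected in each and *Tcrg-V6* at 0. In the CD8 cells of OT-II mice it was 893 and 1338 CPM, and in the CD4 cells of OT-I mice 447 and 377 CPM. The sum was also at 536 CPM in CD4+CD8lo cells of OT-I mouse 1, where 1 of 269 cells was γδ T-like. *Trdc* alone can make the sum high, as in CD8 SM cells of F5 mouse 2, at 323 CPM with 1 of 5 markers detected and 0 γδ T-like cells. The part of cells with these markers outside the γδ T-like clusters was not tested.

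In DP1 the γδ T-like cells were at most 4 of 332 cells in any mouse, and the *Tox2* contrasts without them were 2.12 for AND minus F5 (adjusted p = 0.0477) and -1.80 for OT-II minus OT-I (adjusted p = 0.0404). The summed γδ markers in DP1 were at 484 and 337 CPM in AND, 456 and 461 CPM in F5, 142 and 167 CPM in OT-II and 532 and 306 CPM in OT-I mice, with 3 to 5 of 5 detected.

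**Figure D2:**
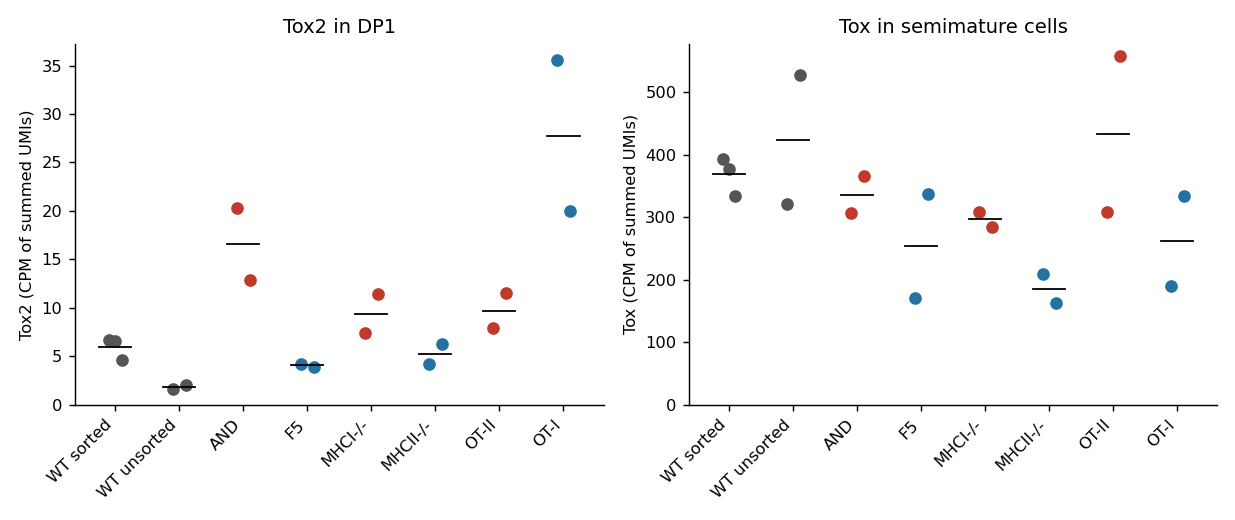
*Tox2* in DP1 (left) and *Tox* in SM cells (right) by genotype, in CPM. Points are mice and the bar is the mean of a genotype; *Tox2* is highest in OT-I mouse 1 at 35.5 CPM and in AND mice is above both F5 mice, and *Tox* is highest in OT-II mouse 2 at 558 CPM.

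The share of cells with a UMI was compared after thinning each cell to 1000 UMIs, with cells of fewer UMIs left out. In DP2, 52.6% ± 9.96 of cells in CD4-fated mice (n = 5) and 41.1% ± 8.32 in CD8-fated mice (n = 6) held a *Tox* UMI (exact permutation test, two-sided, p = 0.0823, 0.364 after adjustment over 6 comparisons). In DP1 the shares were 33.8% ± 6.59 and 30.8% ± 2.70 (n = 6 each, exact permutation p = 0.318). None of the 6 comparisons passed after adjustment, in a test that exchanged mice across the pairs of genotypes. Thinned to 1500 UMIs, the *Tox* differences were 6.59 percentage points in DP1 (exact permutation p = 0.0476) and 16.6 in DP2 (exact permutation p = 0.0130). Cells with fewer than 1500 UMIs were left out there, so that the cells compared were not the same as at 1000 UMIs. Without thinning, the DP2 shares were 86.7% and 79.6% (exact permutation p = 0.286).

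A finer order was made for 34450 cells of the positive selection trajectory, as a diffusion pseudotime cut into 10 bins of equal cell number. Many of these cells came from RNA clusters that could not be named, as given below. *Tox*, *Tox2* and the genes of the lists below were left out of the variable genes behind the order. List genes still had a part in other steps. The start of the order was set by *Rag2*, *Arpp21* and *Aqp11*. Its CD4 and CD8 branches were set by markers that included *Zbtb7b*, *Cd4*, *Runx3* and *Cd8a*. *Tox* was highest in bins 2 and 3, at 1460 ± 285 and 1503 ± 226 CPM in WT mice (n = 5), and fell to 175 ± 59.9 CPM in bin 10. From bin 4 on, the level in CD8-fated mice was below that in CD4-fated mice. In bin 5 *Tox* stood at 745 ± 162 CPM in CD4-fated, 346 ± 85.7 CPM in CD8-fated (n = 6 each) and 789 ± 55.1 CPM in WT mice (n = 5). In bin 7 it stood at 369 ± 98.2, 172 ± 24.4 and 290 ± 47.8 CPM.

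*Tox* was called higher in CD4-fated mice in 5 bins in a row. Cells of CD4-fated mice on the CD8 branch of the trajectory, and the reverse, were left out (732 cells). The late bins thus set mainly CD4 cells of CD4-fated mice against CD8 cells of CD8-fated mice, so fate and cell type cannot be told apart there. On the log2 scale the differences were 1.11 ± 0.190 in bin 5 (adjusted p = 0.0014), 0.91 in bin 6 (adjusted p = 0.0016), 1.07 in bin 7 (adjusted p = 0.0011), 1.01 in bin 8 (adjusted p = 0.0046) and 0.70 in bin 9 (adjusted p = 0.0227). Of all genes, 3.82%, 6.01%, 6.7%, 7.02% and 10.7% were called in these bins. In bins 1 to 3 the difference was between -0.003 and 0.25 (adjusted p = 1.00 in each), where 0%, 0.017% and 0.0293% of genes were called. In bins 4 and 10 it was 0.76 (adjusted p = 0.173; 0.571% called) and 0.44 (adjusted p = 0.167; 17.2% called).

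This result depended on the order of the cells. With cells ordered by a maturation score of late minus early genes, *Tox* was called in 0 bins, where the differences in bins 5 to 9 were between 0.18 and 0.38. Without a correction for the experiment it was called in 2 bins, and without the AND and F5 mice in 3. Leaving out 1 mouse gave 4 to 7 bins, and the call in bin 9 was lost in 5 of these 12 fits (without either MHCI-/- mouse, either MHCII-/- mouse or OT-I mouse 1). *Tox2* could be tested in 5 bins and was called in none, with an unadjusted p under 0.05 in bin 5 alone (1.75 ± 0.629, adjusted p = 0.171), and in none under DESeq2.

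**Figure D3:**
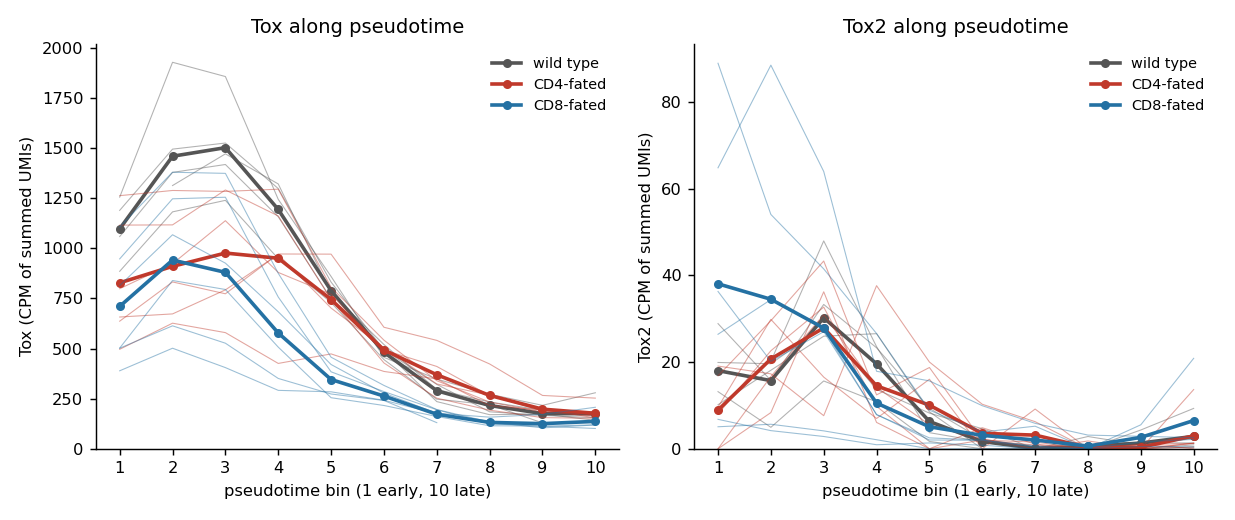
*Tox* (left) and *Tox2* (right) in CPM over 10 pseudotime bins, early to late. Thin lines are mice and thick lines group means; *Tox* of CD8-fated mice is below that of CD4-fated and WT mice from bin 4, and *Tox2* falls to near 0 by bin 7.

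By its level-weighted mean bin, *Tox2* lay earlier in the order than *Tox*. This mean covers all bins, so that a lower level in late bins moves it as an earlier rise would. The level-weighted mean bin of *Tox2* minus that of *Tox*, each taken within a mouse, was -0.71 ± 0.468 bins (SD, n = 16 mice). *Tox2* was earlier in 15 of 16 mice (permutation test by sign flips, two-sided, p = 0.00018). Ordered by the maturation score, the shift was -0.44 and *Tox2* was earlier in 15 of 17 mice (permutation p = 0.0002). The bin of the highest level did not differ by this test (-0.19 bins, permutation p = 0.590), and *Tox2* was earlier by it in 6 of 16 mice.

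Within DP cells, both genes were higher in the top than in the bottom group by surface CD5 or CD69, proteins that increase with TCR signalling. This comparison was added after other results had been seen. DP cells of each mouse were split into 5 groups of equal size by each antibody. From the lowest to the highest CD5 group, mean *Tox* was 110, 310, 497, 650 and 838 CPM, and the highest group exceeded the lowest by 728 ± 245 CPM (SD) in 17 of 17 mice (exact sign-flip permutation test, adjusted p = 2.0e-05). Mean *Tox2* over the same groups was 3.60, 10.0, 11.1, 16.7 and 25.4 CPM, higher at the top in 17 of 17 mice (exact permutation, adjusted p = 2.0e-05). By CD69, mean *Tox* was 184, 269, 433, 630 and 646 CPM from the lowest to the highest group, and the highest exceeded the lowest in 17 of 17 mice (exact permutation, adjusted p = 2.0e-05). From the fourth to the highest CD69 group *Tox* was lower in 6 of the 7 sorted mice, such as from 943 to 552 CPM in MHCII-/- mouse 1, and higher in the 10 unsorted mice. Mean *Tox2* was 6.91, 7.83, 10.2, 18.1 and 18.6 CPM, with the highest group above the lowest in 16 of 17 mice (exact permutation, adjusted p = 4.6e-05) and below the fourth in 7 of 17. The groups were set within each mouse, so that in the mice sorted as CD5+ the lowest group still carried CD5.

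**Figure D4:**
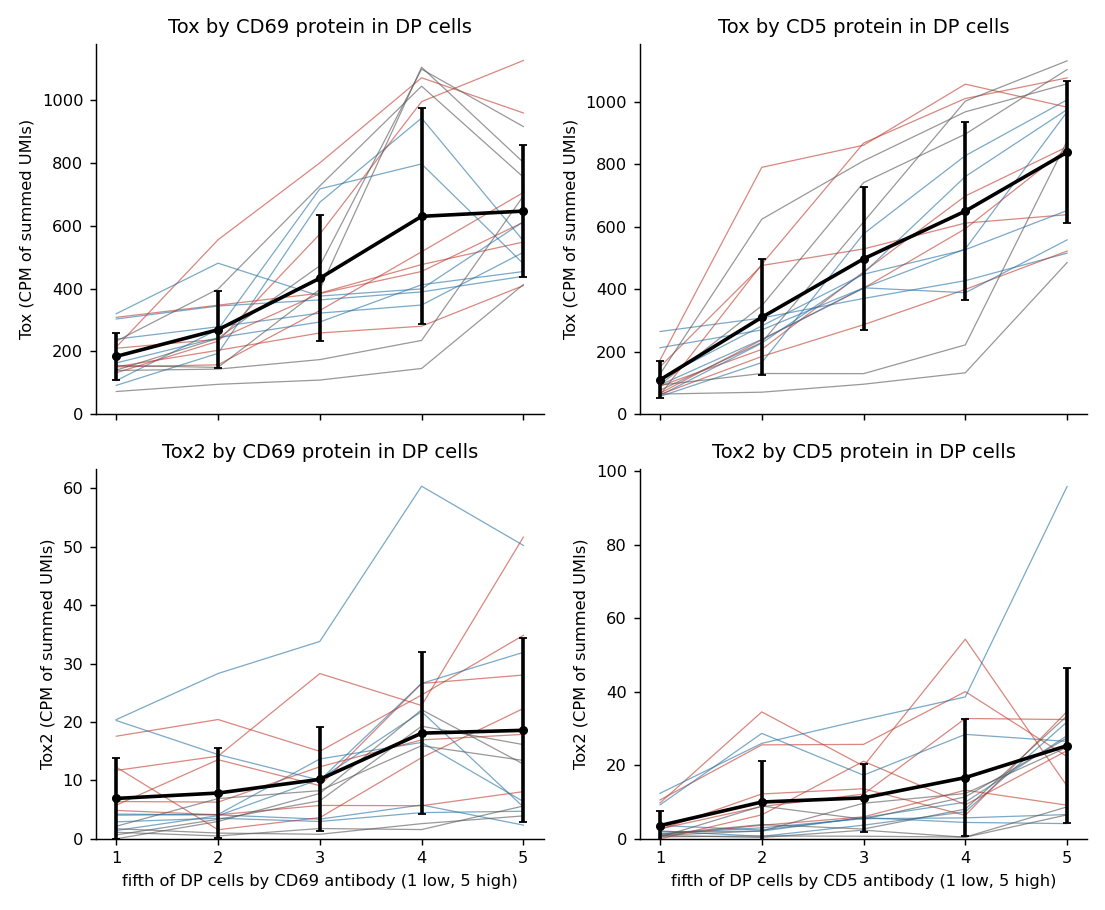
*Tox* (top) and *Tox2* (bottom) in CPM of DP cells in 5 groups of equal size by antibody level, for CD5 and CD69, lowest to highest. Black points are the mean ± SD over 17 mice and coloured lines are mice by fate; mean *Tox* goes from 110 to 838 CPM with CD5 and from 184 to 646 CPM with CD69.

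Among antibody-gated cell types of the WT mice, each type was set against all DP cells. *Tox* in DP cells was at 496, 573 and 382 CPM in the sorted and 149 and 252 CPM in the unsorted mice, and the groups did not overlap. The double negative gate (DN, CD4- CD8-), which in unsorted thymus holds precursors of DP cells, was lower in *Tox*, with a log2 difference of -0.78 ± 0.275 (adjusted p = 0.0241; 45.5% of genes called). In the 3 sorted WT mice, whose sort for CD5 and TCRβ leaves out such precursors, this gate held 21 to 34 cells with *Tox* at 271 to 397 CPM. In the 2 unsorted mice it held 194 and 232 cells with *Tox* at 74.6 and 109 CPM. The call was lost in DESeq2 (adjusted p = 0.101), with the antibody thresholds raised (adjusted p = 0.0969) and without WT mouse 2 or WT mouse 5 (adjusted p = 0.0596 and 0.0767). *Tox* in CD4 SP CD25- cells differed by 0.16 (adjusted p = 0.631; 48.4% called), and the sign turned without WT mouse 4 or WT mouse 5. In CD8 SP cells it differed by -0.42 (adjusted p = 0.195; 44.1% called), and without WT mouse 4 the difference was called (-0.67, adjusted p = 0.0343).

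*Tox2* was lower than in DP cells, with a log2 difference of -1.83 ± 0.586 in CD4 SP CD25- cells (adjusted p = 0.0127) and -2.87 ± 0.934 in CD8 SP cells (adjusted p = 0.0158). The first was lost in DESeq2 (adjusted p = 0.0741) and without any 1 of the sorted WT mice (adjusted p = 0.0603 to 0.0676), and the second without WT mouse 1 or 2 (adjusted p = 0.0677 and 0.0944). In WT CD11c+ cells *Tox* was near 0, with 1 and 2 UMIs in 32 cells each of WT mice 4 and 5 (log2 difference from DP -4.69, adjusted p = 0.00038; 26.7% called). CD4 SP CD25+ cells, a gate meant for regulatory T cells, held *Tox* at 159 and 176 CPM in the 2 mice with enough cells and no *Tox2* UMI. They differed in *Tox* by -1.07 from DP (adjusted p = 0.240; 8.78% called) and by -1.23 from CD25- cells (adjusted p = 0.369; 1.09% called). Over all mice this gate held 152 cells, whereas the Treg-like RNA cluster described below held 1598, with *Tox* at 292 CPM. The overlap of the gate with that cluster was not tested. TCRγδ+ cells numbered 4 to 15 per WT mouse and were not tested. In those of WT mice 1 to 5, *Tox2* had 4, 5, 6, 15 and 0 UMIs, or 30.2, 64.2, 207, 93.3 and 0 CPM. The mice with at least 20 TCRγδ+ cells were AND mouse 2 (74 cells), with *Tox2* at 14.8 CPM, and OT-II mice 1 and 2 (34 and 28 cells), at 38.6 and 54.6 CPM. AND mice lack *Rag1* and cannot rearrange a γδ receptor, so the label TCRγδ+ goes against the genotype for these 74 cells. What the antibody bound on them was not tested.

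Cells of all mice were also clustered on RNA with *Tox* and *Tox2* left out, into 32 clusters, of which 17 could be named from fixed markers. The unnamed clusters held 26864 cells. Among them, 488 cells with both cell-cycle and CD8 SP genes in the lead belonged to the trajectory above. Unnamed clusters of 5331, 5241, 4611 and 321 cells also entered the trajectory, by the class whose markers they were nearest to. Their mean marker z-score for that class was 0.3, 0.67, 0.18 and 1.45. Of the cluster of 5241 cells, 56.4% came from F5 mouse 2 and 0.1% from WT mice. Over all mice, among the named classes, *Tox* was highest in signaled DP-like cells, at 1272 CPM (95% Poisson interval 1255 to 1289, counting error only), followed by CD4 SP-like cells at 636 CPM and negative selection-like cells at 495 CPM. The CD4 SP-like cluster had a mean marker z-score of 1.38 for that class and of 1.44 for signaled DP-like cells. CD4 SP CD25- cells gated on antibodies held *Tox* at 280 CPM over all mice. In the 12 mice with at least 20 signaled DP-like cells, their *Tox* was at 692 to 1449 CPM and above every other named class of at least 20 cells in the same mouse. The unnamed clusters ranged from 7.80 to 622 CPM, 3 of them above negative selection-like cells. Quiescent DP-like cells held 118 CPM, CD8 SP-like cells 135 CPM, NKT-like cells 133 CPM, cycling-like cells 100 CPM and DN-like cells 86.4 CPM. *Tox* was at 292 CPM in Treg-like and 201 CPM in mature SP-like cells, and lowest among the named classes in 99 B-like cells, at 30.5 CPM (16.7 to 51.1).

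The order was different for *Tox2*. Among the named classes it was highest in 2060 γδ T-like cells, at 88.4 CPM (83.1 to 94.0), and next in signaled DP-like cells at 31.5 CPM (28.9 to 34.4). *Tox* in those γδ T-like cells was 394 CPM (382 to 405). The 2 clusters were led by *Sox13* and *Maf*, regulators of γδ T cells, and *Blk* and *Etv5*. WT mice gave 1.4% and 1.0% of their cells, and most came from AND, OT-II and OT-I mice. Per mouse, among the AND, OT-II and OT-I mice, with 33 to 652 such cells each, *Tox2* was at 76.997 and 105, 107 and 93.6, and 94.4 and 61.7 CPM. The levels overlapped between the 3 genotypes, and in both OT-II mice they were above those of the antibody-gated TCRγδ+ cells. In AND mice, which cannot rearrange a γδ receptor, the name γδ T-like rests on RNA markers alone. In the 4 mice with at least 20 cells of both classes, *Tox2* in signaled DP-like cells was lower, at 26.8 and 20.02 CPM in AND mice 1 and 2, 12.5 CPM in OT-II mouse 1 and 85.3 CPM in OT-I mouse 1. An unnamed cluster of 289 cells, 67.5% of them from OT-I mouse 1, held *Tox2* at 95.5 CPM, and another of 240 cells held it at 41.8 CPM (36.5 to 47.7). B-like cells had 0 *Tox2* UMIs in 99 cells, and DN-like, mature SP-like and Treg-like cells were at 0.626, 0.688 and 1.00 CPM. Clusters were formed from RNA of the same cells, so these levels are descriptions without a test.

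**Figure D5:**
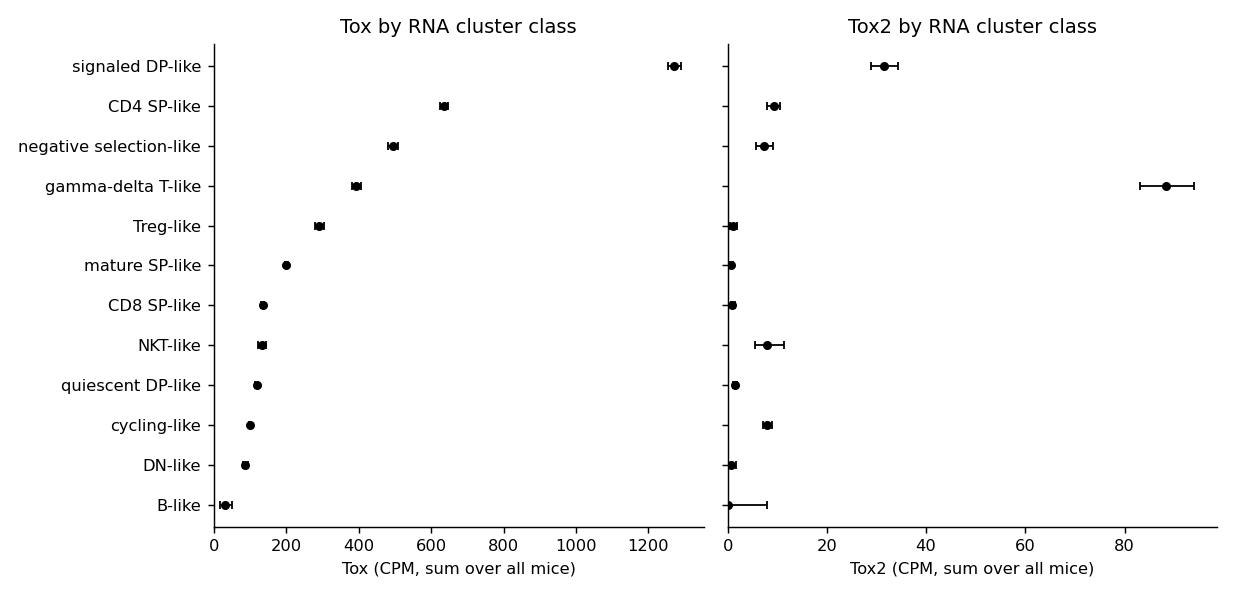
*Tox* and *Tox2* in RNA-defined cell classes, in CPM of UMIs summed over all mice, with 95% Poisson intervals. Among the named classes *Tox* is highest in signaled DP-like cells at 1272 CPM and *Tox2* in γδ T-like cells at 88.4 CPM.

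Among the steps, the related gene *Tox4* was called only in WT mice from DP1 to DP2, with a rise of 0.33 on the log2 scale (adjusted p = 0.0200), and in no comparison of the fates by gate. At the same step it differed by 0.30 in CD4-fated (adjusted p = 0.102) and 0.24 in CD8-fated mice (adjusted p = 0.142). *Tox3* did not pass the filter on low counts at any step.

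Genes of the pathways around TOX were followed at the DP1 to DP2 step. Of the TCR response list, 9 of 11 genes tested rose in CD4-fated, 9 of 11 in CD8-fated and 10 of 11 in WT mice, and none fell. Of all genes tested, 6.76%, 11.8% and 17% rose and 11%, 17.9% and 18.9% fell at this step in the same order. The median log2 change of the list was 1.37, 1.24 and 2.06, beside -0.02, -0.03 and -0.01 over all genes. The early antigen receptor target *Cd69* rose by 1.81, 1.33 and 2.76, in the same order, and *Itm2a* by 2.22, 1.82 and 2.82 (each adjusted p under the threshold). Cells were gated on CD69 protein at this step, so that the *Cd69* change is not independent of the gate. *Tox* in the same steps rose by 1.12, 0.82 and 1.75.

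Of the calcineurin-NFAT and NR4A list, 4 of 11 genes tested rose and 1 fell in CD4-fated, 4 of 12 rose and 1 fell in CD8-fated, and 6 of 12 rose and 2 fell in WT mice. *Nr4a1* and *Nr4a3*, nuclear receptors induced by TCR signals, rose by 2.81 and 4.32 in CD4-fated mice, 2.00 and 3.73 in CD8-fated mice and 3.49 and 4.80 in WT mice. *Nfatc3*, an NFAT family member, fell by 1.07 in CD4-fated, 1.18 in CD8-fated and 1.26 in WT mice. Of the coinhibitory receptors and partners, 5 of 6 rose in CD4-fated and in WT mice, and 3 of 7 rose and 1 fell in CD8-fated mice. *Pdcd1*, which encodes the inhibitory receptor PD-1, rose by 2.37, 1.63 and 3.17 in CD4-fated, CD8-fated and WT mice, whereas *Lag3* fell by 1.14 in CD8-fated mice.

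Of the preselection DP list, which holds the recombinase genes *Rag1* and *Rag2*, 7 of 8 fell in CD4-fated and 8 of 8 in CD8-fated and in WT mice. Of the CD4 lineage network, 7 of 17 rose and 1 fell in CD4-fated, 3 rose and 5 fell in CD8-fated, and 7 rose and 3 fell in WT mice. *Zbtb7b*, which encodes the CD4 lineage regulator ThPOK, rose by 3.09 in CD4-fated mice. *Runx3*, needed in the CD8 lineage, rose by 1.78 in CD8-fated and 2.20 in WT mice. *Cd4* fell by 1.48 in CD8-fated mice. Of the innate lymphoid program, 3 of 4 rose and 1 fell in CD4-fated, 2 of 5 rose and 1 fell in CD8-fated, and 3 of 5 rose and 1 fell in WT mice, with *Id2*, an inhibitor of E proteins, rising by 2.13, 1.80 and 2.73.

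In the DP2 comparison of the fates, in which *Tox* was not called, 3 of 17 genes of the CD4 lineage network were higher and 1 lower in CD4-fated mice, where 0.939% of all genes were called higher and 0.972% lower. *Myb*, *Cd4* and *Gata3*, a regulator of the CD4 lineage upstream of ThPOK, were higher by 0.96, 1.13 and 0.96 (adjusted p = 0.0113, 0.0168 and 0.0250), and *Runx3* was lower with a log2 difference of -2.32 (adjusted p = 5.2e-05). Of the TCR response list 3 of 10 were higher, namely *Cd69*, *Dusp5* and *Cd5*, by 0.78, 0.93 and 0.65 (adjusted p = 0.0098, 0.0436 and 0.0495). No gene of the calcineurin-NFAT and NR4A list (8 tested) or of the coinhibitory list (5 tested) was called.

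Over 105 sums of a mouse and a gate, the genes most like *Tox* in log2(CPM + 1) included *Ets1* (Pearson r = 0.845), *Hivep3* (0.817), *Satb1* (0.816), *Lztfl1*, *Ccr4*, *Arap2*, *Kdm6b*, *Midn* and *Jarid2* (0.763), among 8989 genes with a mean of at least 5 CPM. Those most like *Tox2* were *Rapsn* (0.751), *H2-Q2* (0.744), *Sypl* (0.740), *Sh3kbp1*, *Ccr4*, *Edaradd*, *P2rx7*, *Arap2*, *Hnrnpll* and *Gata3* (0.681). *Ccr4* and *Arap2* were on both lists. The correlation of *Tox* with *Tox2* was 0.525, which placed *Tox2* at rank 274 of the genes like *Tox*. The sums share mice, gates and sequencing depth, and *Tox2* has few UMIs in many of them.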

How the data were processed

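Cell Ranger 3.1.0 and the mm10 build (GRCm38) are named in the submitters' processing notes, and the authors deposited unnormalized UMI counts of genes and antibodies per cell. Cells were kept with at least 200 genes, at most 15% mitochondrial UMIs, 1000 to 10000 antibody UMIs and 70 or more antibodies detected, and called doublets (2777) were left out. Pooled matrices of the same lanes were not used. The 2 lanes of WT mouse 4 and of WT mouse 5 were summed. UMI counts were summed per mouse and gate and tested with edgeR 4.0.16 (limma 3.58.1, R 4.3.3; TMM scaling, default low-count filter, quasi-likelihood F test, Benjamini-Hochberg adjustment, threshold 0.05), with the mouse as a block for steps and a covariate between fates for the pair of genotypes compared (OT-II and OT-I, AND and F5, or the MHC-deficient mice), called a family. Steps were fitted apart in each group. DESeq2 1.42.0 and other gates, scalings and filters were alternatives. On simulated counts for the DP2 comparison of the fates (6068 genes), 57% of genes changed 2-fold and 99% of those changed 4-fold were recovered.

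Antibody levels are UMIs per 10000 antibody UMIs of a cell: CD4 was called positive from 150, CD8a high from 400, CD8a negative under 60, CD69 positive from 30, IL-7Rα from 12 and TCRβ from 60. Named list genes are up to 4 per list with the lowest adjusted p at the DP1 to DP2 step and in the DP2 comparison. The genes described, the lists and several tests were chosen with earlier results of these data known. Mice with the same replicate number deviated together in all 3 families only in DP1 (r = 0.173, 0.441 and 0.809). In the other gates the lowest family was between -0.023 and 0.0064, while the OT mice were at 0.549, 0.606 and 0.779 in CD4+CD8lo, SM and mature cells. Mice are separate animals. Some list and likeness results are not reported here. Gene positions are those of RefSeq's GRCm38.p6 table. Antibody-derived tags entered the cell filters, the gates and the groups of DP cells by CD5 or CD69.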

Additional observations from a re-analysis of the deposited data

Results flagged for a closer look

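Of 34 groups of 4 to 10 mice checked for a mouse far from the others, 3 stood out, where chance gives about 1 in 20. *Tox* in CD4 SM cells of OT-II mouse 2 was at 557.63 CPM, where the other CD4-fated mice were between 285 and 365.5 CPM. *Tox* in CD8 SM cells of WT mouse 5 was at 348.69 CPM, where the other WT mice were between 224 and 256 CPM. The lanes of OT-II mouse 2 (median 2124 RNA UMIs per cell) and WT mouse 5 (1541 and 1495.5) were the shallowest. Whether depth bears on these *Tox* levels was not tested. *Tox2* in DP2 cells of OT-I mouse 1 was at 82.165 CPM, from 12 UMIs in 20 cells, where the other CD8-fated mice were between 1.94 and 15.4 CPM.

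Genotype contrasts of *Tox2* in DP1 differed from each other. The AND minus F5 contrast and the OT-II minus OT-I contrast had opposite signs and differed by 3.86 ± 0.519 on the log2 scale (edgeR quasi-likelihood test, adjusted p = 0.0067). This test was chosen after the values were seen. It missed the threshold without AND mouse 1, OT-I mouse 1 or OT-II mouse 1.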

How the results depend on the processing

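Values are log2 differences unless said otherwise, with DESeq2 and edgeR p-values adjusted over all genes. With DESeq2, *Tox2* from DP1 to DP2 in CD8-fated mice (0.93), *Tox* in semimature cells (0.66), *Tox2* in CD4 SP CD25- cells (-1.82) and *Tox* in DN cells (-0.60) missed the threshold, while *Tox* from CD4+CD8lo to DP3 in CD8-fated mice (-0.99) and *Tox2* in DP1 for AND minus F5 (2.13) and OT-II minus OT-I (-1.76) passed. *Tox* in semimature cells also missed it with DESeq2's size factors (0.67), library size (0.62), thresholds raised (0.76) or lowered (0.58), at least 50 cells (0.72), no family covariate (0.68) and no AND and F5 mice (0.73), the last chosen after seeing the data.

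With no filter on low counts, *Tox2* from DP2 to CD4+CD8lo in CD4-fated mice (-0.92), *Tox* from CD4+CD8lo to DP3 in CD8-fated mice (-1.01) and *Tox* from CD8 SM to mature in WT mice (-0.53; -0.64 with doublets kept) passed. Without γδ T-like cells, chosen after seeing the data, *Tox2* in DP1 passed for AND minus F5 (2.12) and OT-II minus OT-I (-1.80).

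With antibody thresholds raised, *Tox2* from DP1 to DP2 missed in CD4-fated (0.82) and CD8-fated mice (0.78), *Tox* in DN cells missed (-0.56), and *Tox* in DP2 between the fates passed (0.58). With thresholds lowered, *Tox2* from DP1 to DP2 missed in CD4-fated (0.80) and CD8-fated mice (0.68; 1.11 with at least 50 cells), and *Tox* passed in CD4 SP CD25+ cells against DP (-1.46) and against CD25- cells (-1.47) and in CD8 SP cells (-0.55).

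Signs turned for values that were not called: *Tox2* from CD4 SM to mature in CD4-fated mice (0.11 with doublets kept, 0.044 and 0.11 with thresholds raised and lowered), *Tox* from DP2 to CD4+CD8lo in CD8-fated (-0.021 with at least 50 cells) and WT mice (0.013 without the filter, 0.18 with thresholds raised), *Tox* from DP3 to CD8 SM in WT mice (0.10 with doublets kept), *Tox2* between the fates in DP1 (-0.47 without AND and F5) and CD4+CD8lo (-0.14, thresholds lowered), *Tox2* in DN cells (-0.35, thresholds lowered), and *Tox* in bin 2 (0.43, 0.31 and 0.0058 under the maturation score, no experiment correction and DESeq2) and bin 3 (-0.16 without AND and F5).

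*Tox* was called in 0 bins under the maturation score, 2 without the experiment correction and 3 without AND and F5, and bin 9 missed the threshold with the other branch of the trajectory kept (0.52). The *Tox* shares passed unadjusted at 1500 UMIs in DP1 (6.59 points) and DP2 (16.6 points). The *Tox2* shares changed sign in DP1 without thinning (-0.11 points) and in CD4+CD8lo cells at 1500 UMIs (0.0025 points). The timing shift by the bin of highest level was -0.19 bins and missed the threshold. The cause of these changes was not tested.

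With the replicate block, *Tox* in mature cells was called higher in CD4-fated mice (0.43, adjusted p = 0.0146), as were bins 4 and 10 (0.73 and 0.48), so that 7 bins were called. In DP1 the *Tox2* contrasts of AND minus F5 (2.10) and OT-II minus OT-I (-1.87) passed, in a block added after seeing the data. In DP1, where the numbers pair the mice, the block gave 0.15 for *Tox* and 0.39 for *Tox2* (adjusted p = 1.00 each), and the pairing changed no other call reported here among the stage, bin and genotype comparisons fitted with it.

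Leaving out 1 mouse (the lone mouse left in a genotype is then assumed to vary like the others) gave these ranges. *Tox2* from DP1 to DP2 ranged from 1.23 to 1.38 in CD4-fated and 0.85 to 1.196 in CD8-fated mice, and *Tox2* from CD4 SM to mature from -0.57 to 0.36 in CD4-fated mice. *Tox* from DP2 to CD4+CD8lo ranged from -0.0050 to 0.21 in CD8-fated and -0.083 to 0.037 in WT mice. Between the fates, *Tox2* ranged from -0.043 to 0.88 in DP1 and -0.32 to 0.73 in CD4+CD8lo cells, and *Tox* from 0.52 to 0.82 in semimature cells. *Tox2* contrasts in DP1 ranged from 1.71 to 2.38 (AND minus F5), -2.01 to -1.19 (OT-II minus OT-I) and 3.29 to 4.12 (their difference), and in mature cells from -3.09 to -2.36 (OT-II minus OT-I). Against DP cells, *Tox* ranged from -0.054 to 0.40 (CD4 SP CD25-), -0.67 to -0.18 (CD8 SP) and -0.92 to -0.67 (DN), and *Tox2* from -2.65 to -1.40, -3.78 to -2.17 and -0.28 to 0.68. In bins 2, 4, 9 and 10 *Tox* ranged from -0.15 to 0.11, 0.61 to 0.94, 0.59 to 0.80 and 0.31 to 0.59, and *Tox2* shares in DP2 from 0.79 to 1.83 and in CD4+CD8lo cells from -0.30 to 0.20 points.

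Counts of *Tox2* were low: stage gates held 0 to 187 of its UMIs per mouse, and a difference below the spread of such counts was not detectable. Whether depth or a low level in the cells set these counts was not tested.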
